A study of Mus musculus with 9 samples.

Results

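The RNA of 11778 transposable element copies was followed along 70 Mb of mouse chromosome 6, from 10 to 80 Mb of the mm10 assembly, in embryonic stem cells (ESCs). A copy is 1 annotated occurrence of a mobile repeat in the genome, and a member was every copy of the deposited table on chromosome 6 whose start lay from 10000000 to below 80000000. The members were 1.89% of the 623916 copies of the whole table. The segment was picked because its copies were low in G4 cells against WT cells in an earlier look at these data, so the values of G4 against WT, and of G4 against G1, are given as a description. Counts of members past the threshold of the fit in these contrasts restate that choice, and nothing is read from them. The G1 libraries had no part in that choice, and G1 against WT was tested, although the WT libraries are shared by both contrasts.

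The 9 libraries were 3 of generation 4 (G4) Terc-/- ESCs, 3 of generation 1 (G1) Terc-/- ESCs and 3 of wild-type (WT) ESCs, all C57BL/6 and, by the title of the series, of early passage. The product of Terc is the RNA from which telomerase copies telomere repeats, and mice that lack it lose telomere length from one generation to the next. G1 ESCs came from crosses of Terc+/- parents, and G4 ESCs from crosses of generation 3 Terc-/- parents. Every cell of a group descends from its own derivation, so the generation, the telomere length and the history of a cell line cannot be told apart. The labels do not say whether the 3 libraries of a group were separate cultures, the study's methods count fewer biological replicates than libraries, and the p-values given here measure only the spread between these libraries. Terc itself is overlapped by no copy of the table, so its RNA was not measured here and the genotype labels could not be checked by it.

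Transposable elements fall into LINEs, which carry their own reverse transcriptase, SINEs, short elements that borrow the LINE machinery, LTR elements, which resemble retroviruses in build, and DNA transposons, which are mostly silent relics in mammals. A copy can be transcribed from its own promoter, or it can be carried within the RNA of the gene in which it lies, in an untranslated region (UTR), another exon or an intron. Reads over a copy therefore report on the gene around it as well as on the repeat. The proximal stretch of mouse chromosome 6 holds the HoxA cluster of patterning genes, the imprinted Mest domain, the T cell receptor beta genes and many housekeeping genes.

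The labelled cell type was read through copies in the exons of marker genes. Of 10 ESC markers, Nanog, Esrrb, Tdgf1 and Fgf4 were measured, with summed levels of 20110 to 24140 CPM (counts scaled to a common library size) in G4 libraries, 9238 to 10170 CPM in G1 libraries and 6180 to 6679 CPM in WT libraries, while Pou5f1, Sox2, Zfp42, Klf4, Dppa4 and Utf1 had no tested exonic sum. Tdgf1 made up most of these sums, with 15440 to 18730 CPM in G4 libraries, where Esrrb had 19.8 to 27.5 CPM. Singly, the measured ESC markers were at 0.78 (Fgf4) to 2.83 (Esrrb) on the log2 scale for G4 over WT. Of 8 fibroblast markers, which would report feeder cells, only Col1a1 and Fn1 were measured, with summed levels of 113 to 117 CPM in G4 libraries, 74.9 to 87.8 CPM in G1 libraries and 38.7 to 57.7 CPM in WT libraries. Both fibroblast sums and ESC sums were thus highest in G4 libraries, and their part in the results below was not tested. Library totals over the whole table ran from 916844 to 1135585 counts.

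Sequences are shown for 2 members that lie in exons of non-coding transcripts: a SINE of the Hox-adjacent transcript Halr1 that was higher in G1 cells, and a SINE in a retained intron of Lsm8 as an example of a B1 copy that holds its promoter box. They were cut from the GENCODE M21 transcripts (GRCm38, the same assembly as mm10) and are written 5′ to 3′ along the repeat's own strand. Capitals mark GTTCNANNC, the B box of the internal promoter from which RNA polymerase III transcribes B1 SINEs, searched on both strands.
ID_B1 in Halr1, chr6:52112352-52112450, minus strand: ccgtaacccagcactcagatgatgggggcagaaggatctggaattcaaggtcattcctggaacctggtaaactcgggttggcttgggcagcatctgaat
B1_Mus1 in Lsm8, chr6:18854416-18854563, minus strand: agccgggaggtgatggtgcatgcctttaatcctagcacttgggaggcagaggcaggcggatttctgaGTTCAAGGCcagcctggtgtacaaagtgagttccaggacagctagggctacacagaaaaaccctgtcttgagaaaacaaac
The Halr1 stretch holds 99 of the 121 bases of its copy, and the motif was not in its letters. The B1_Mus1 copy held the motif at bases 68 to 76. Among members that lay whole within 1 exon and measured 100 to 160 bases, 40.2% of 174 copies of the Alu family, to which B1 belongs, and 8.75% of 160 copies of all other families held these letters on either strand. A match is a description of letters and no evidence of a working promoter.

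The members comprised 5551 SINEs (47.1%), 2949 LINEs (25.0%), 2772 LTR copies (23.5%) and 506 DNA transposons (4.30%). LINEs made up 17.8% and SINEs 56.4% of the copies on autosomes other than chromosome 6, so the members were richer in LINEs and poorer in SINEs. Every member had some count over the 9 libraries, so these shares describe copies with reads and not necessarily all annotated copies. By position, 7491 members lay in introns, 829 had at least 0.5 of their length in exons, 1284 lay within 5 kb of a gene and 2174 lay farther away. Members were scarcely read: 8769 of them (74.5%) had under 5 counts over all 9 libraries. A filter on low counts kept 227 members, of 13278 copies kept in the whole table, and these 227 are called tested members. Tested members held 54.8% of the segment's counts, and 179 of them lay in 76 genes, so neighbours often report the same transcript. A copy that passed the filter only through WT and G1 libraries had to be lower in G4 cells, and the 11551 members that the filter left out were therefore summed as well.

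The segment gave fewer counts in G4 cells than in WT cells, and about as many in G1 cells as in WT cells. All members together had 7926, 8685 and 8948 counts in the G4 libraries, 14437, 17632 and 14402 counts in the G1 libraries, and 15189, 13974 and 16479 counts in the WT libraries. As a share of the counts of all autosomal copies, with no filter, these were 0.872 ± 0.020% in G4 cells, 1.60 ± 0.016% in G1 cells and 1.58 ± 0.036% in WT cells (SD, n = 3 libraries each). The G4 libraries lay at 0.858 to 0.895%, and no G1 or WT library was under 1.54%. The ratio of mean shares was 0.550 for G4 over WT and 1.01 for G1 over WT. In the exact two-sided permutation test over 6 libraries the G1 and WT shares gave p = 0.7, where 0.1 is the smallest p that 3 libraries against 3 can give. In RNA from a whole culture, fewer cells that transcribe a region and less RNA per cell cannot be told apart, nor can fewer copies of the DNA and weaker transcription of it.

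The members left out by the filter, which no single copy dominates, behaved likewise. Their share of the counts of all autosomal copies left out was 1.16, 1.20 and 1.17% in the G4 libraries, 2.05, 2.05 and 2.07% in the G1 libraries, and 2.05, 1.96 and 2.10% in the WT libraries. The ratio was 0.577 for G4 over WT and 1.01 for G1 over WT (exact two-sided permutation p = 0.9). For tested members the share was 0.710, 0.678 and 0.700% in the G4 libraries, 1.34, 1.38 and 1.34% in the G1 libraries, and 1.35, 1.35 and 1.36% in the WT libraries, a ratio of 0.514 for G4 over WT. Scarce and abundant members were thus low in the same 3 libraries, and the G1 and WT ranges overlapped in both sums.

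The low values ran along nearly the whole stretch. Members left out by the filter were summed in 14 windows of 5 Mb, and in 13 of them every G4 library had a smaller share than every WT library; the same was true of 33.5% of all 496 autosomal windows with at least 400 counts. The log2 ratio of G4 over WT ran from -1.13 in the window at 15 to 20 Mb to -0.14 in the window at 75 to 80 Mb, with a median of -0.77. The exception at 75 to 80 Mb was the window with the fewest reads, 448 counts over all 9 libraries. Of the 14 windows, 12 were under -0.6, against 24 of 466 windows (5.15%) on other autosomes, where the median was -0.04. For G1 over WT the 14 windows lay between -0.11 and 0.19, with a median of 0.00. None of them had all G1 libraries below all WT libraries (15.5% of all windows), and 1 had all of them above (10.3%).

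**Figure D1:**
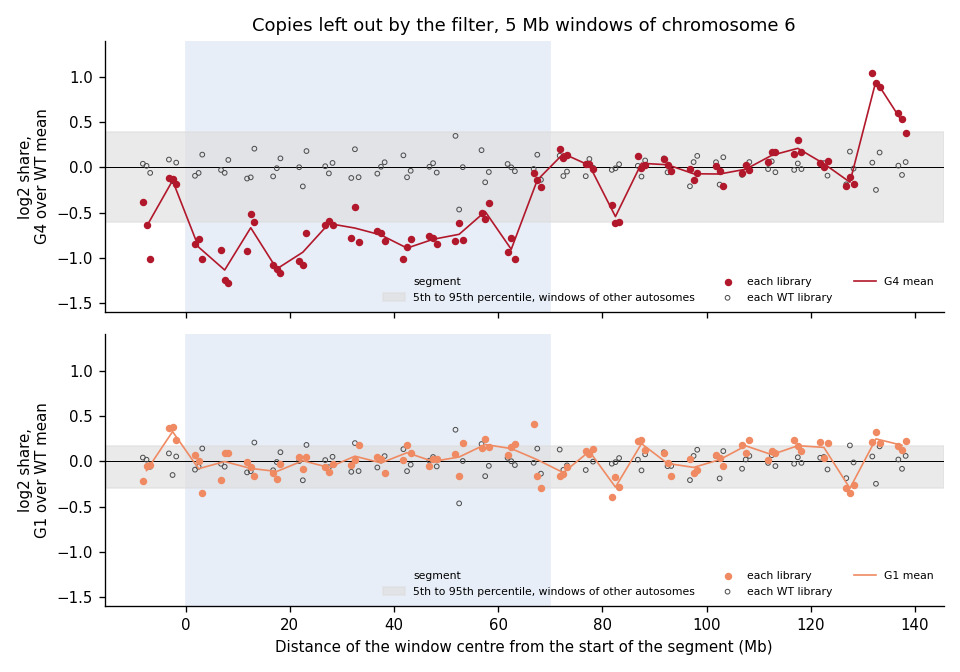
Copies left out by the filter, summed in 5 Mb windows of chromosome 6, plotted by distance of the window centre from the start of the segment in Mb; filled points are single G4 (top) or G1 (bottom) libraries and open points single WT libraries, as log2 of their share over the WT mean, lines join the group means, the blue field is the segment and the grey field holds the 5th to 95th percentile of windows on other autosomes. G4 windows within the segment lie between -1.13 and -0.14, and G1 windows between -0.11 and 0.19.

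The edges of the segment were round numbers, and the values of its neighbours are given for comparison. Before 10 Mb, the 808 copies of the chromosome held 0.0697 ± 0.0024% of autosomal counts in G4 cells, 0.0932 ± 0.0030% in G1 cells and 0.0884 ± 0.0034% in WT cells (SD, n = 3 libraries each), so the G4 share was low there too, at a ratio of 0.789 to WT. From 80 Mb on, the 16644 copies held 3.70 ± 0.070% in G4 cells, 3.49 ± 0.24% in G1 cells and 3.12 ± 0.063% in WT cells, and the ratio of G4 to WT was 1.19. Yet the median log2 fold change of the 341 tested copies there was 0.01 for G4 over WT. Over the 14 windows of scarce copies there the median was 0.04. The windows of scarce copies from 80 to 85 and from 85 to 90 Mb were at 0.15 and 0.02 on the log2 scale for G4 over WT. The next window, from 90 to 95 Mb, was at -0.54. Tested copies gave no sharp end at 80 Mb: their median was -0.36 from 80 to 90 Mb, with 59 of 86 copies below 0, -0.81 from 90 to 100 Mb, with 17 of 23 below 0, and -0.39 for 10 copies from 100 to 110 Mb, against 0.49 from 110 to 120 Mb. Inside the segment the medians of 10 Mb stretches lay between -1.23 and -0.88, except for -0.37 from 40 to 50 Mb.

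Just outside the first bound lay a MER5A copy in an exon of C1galt1, which builds the core of mucin-type sugars, and an MLT2B5 copy in an exon of Rpa3, a subunit of the single-strand DNA binding complex. The MER5A copy had 13.2, 19.2 and 28.8 CPM in the G4 libraries, 55.4, 42.6 and 47.4 CPM in the G1 libraries, and 54.3, 62.8 and 59.6 CPM in the WT libraries. The MLT2B5 copy had 124, 134 and 132 CPM in the G4 libraries, 122, 84.3 and 112 CPM in the G1 libraries, and 91.8, 129 and 89.4 CPM in the WT libraries. The low G4 values of the C1galt1 copy thus lay before the 10 Mb bound, while the Rpa3 copy overlapped between groups. The first tested members inside the bound lay between genes, an IAPEz-int copy at 10691187 with a log2 fold change of -0.28 ± 0.17 (SE) for G4 over WT and an L1Md_T copy at 10699359 with 1.75 ± 0.63. The last members inside the second bound were L1Md_T copies in an intron of Reg2, at 0.07 ± 0.32, and between genes at 79277787, at -1.23 ± 0.54. The 2 B3A copies in exons of Gcfc2 just outside it were at 0.18 ± 0.37 and -0.06 ± 0.41.

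Among tested members the median log2 fold change of G4 over WT was -1.06, a ratio of 0.481, against 0.00 for 12174 tested copies on other autosomes. The middle 50% of members lay between -1.51 and -0.32, and the middle 50% of copies elsewhere between -0.65 and 0.68. Of the members, 194 were below 0 and 33 above it. Between -1.5 and -0.5 lay 98 members (43.2%), against 20.3% of copies elsewhere, and 53 members (23.4%) lay between -0.5 and 0.5, against 39.5% elsewhere. At an adjusted p under 0.05 (edgeR quasi-likelihood test, adjusted over the whole table), 118 members (52.0%) were called lower and 10 (4.41%) higher in G4 cells, where 21.3% of all tested copies were called lower and 21.3% higher. Against G1 the median was -1.05, with 127 members (55.9%) called lower and 6 (2.64%) higher, where 19.2% and 19.0% of all tested copies were called. These 2 contrasts share the G4 libraries, and these counts follow from the way the segment was picked.

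For G1 over WT the median of the 227 members was 0.10, against 0.01 on other autosomes, and 160 members (70.5%) lay between -0.5 and 0.5, against 67.0% elsewhere. In the edgeR test, 6 members (2.64%) were called lower and 8 (3.52%) higher, where 4.36% and 2.41% of all tested copies were called. With the Wald test of DESeq2 there were 4 lower and 4 higher, all of them among the 14. The share of members called in G1 cells was thus close to that of the table.

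**Figure D2:**
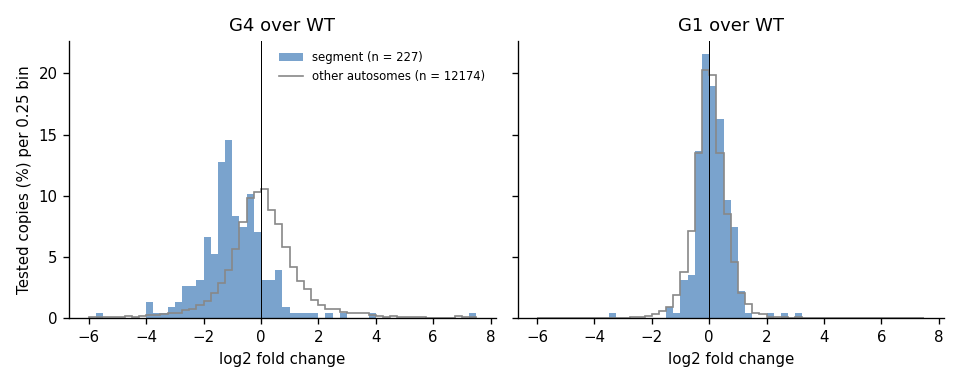
Percent of tested copies in bins of 0.25 on the log2 scale for G4 over WT (left) and G1 over WT (right), with the 227 members of the segment filled in blue and 12174 copies of other autosomes outlined in grey. The segment's median lies at -1.06 on the left and at 0.10 on the right, and copies of other autosomes lie at 0.00 and 0.01.

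Every class of repeat took part. LINE members held 1.31 ± 0.0084% of autosomal LINE counts in G4 cells, 2.47 ± 0.010% in G1 cells and 2.26 ± 0.061% in WT cells (SD, n = 3 libraries each). SINE members held 0.788 ± 0.019% in G4 cells, 1.504 ± 0.042% in G1 cells and 1.55 ± 0.044% in WT cells. LTR members held 0.705 ± 0.027% in G4 cells, 1.26 ± 0.036% in G1 cells and 1.27 ± 0.036% in WT cells. DNA transposons held 1.62 ± 0.064% in G4 cells, 2.28 ± 0.099% in G1 cells and 2.13 ± 0.14% in WT cells. In each class all G4 libraries were below all WT libraries, with ratios of 0.580 for LINEs, 0.508 for SINEs, 0.557 for LTR copies and 0.761 for DNA transposons. G1 LINE shares, at 2.47 to 2.48%, were above the WT range of 2.19 to 2.31%, at the smallest possible exact two-sided permutation p of 0.1; for the other classes p was 0.3 to 1. Adjusted over the 21 shares that were tested for G1 against WT, the LINE p was 0.525, and no such test could pass 0.05.

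The medians of tested members for G4 over WT were -0.25 for 12 DNA transposons, -0.97 for 56 LINEs, -0.999 for 90 SINEs and -1.30 for 69 LTR copies, against -0.11, -0.05, -0.03 and 0.13 for the same classes on other autosomes. By position the medians were -0.95 for 112 exonic members, of which 95 lay in 3′ UTRs, -1.15 for 67 intronic ones, -1.70 for 20 within 5 kb of a gene and -0.90 for 28 farther away. On other autosomes they were 0.0009 for exonic, -0.015 for intronic, 0.16 for nearby and -0.21 for farther copies. Shares by position gave ratios of 0.505 for exonic, 0.550 for intronic and 0.517 for nearby members. For members over 5 kb from any gene the ratio was only 0.867, at 1.60 ± 0.053% in G4 cells, 2.03 ± 0.083% in G1 cells and 1.84 ± 0.033% in WT cells, while those of them that the filter left out gave 2.12 ± 0.083% in G4 cells, 3.57 ± 0.080% in G1 cells and 3.33 ± 0.13% in WT cells, a ratio of 0.636. The scarcest 57 of the tested members had a median of -0.64, and the 3 more abundant groups of 56 or 57 members had medians between -1.13 and -1.17.

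Only 1 repeat name, the young LINE-1 subfamily L1Md_T, had at least 10 tested members. Its 26 tested copies, of 418 in the segment, had a median of -0.94 for G4 over WT, ran from -2.79 to 1.75, and 23 of them were below 0. The 487 tested L1Md_T copies on other autosomes had a median of -0.40. For G1 over WT the medians were 0.34 in the segment and 0.22 elsewhere. Young LINE-1 copies resemble each other closely, and reads shared between them were divided among copies, so single copies of this name are uncertain.

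**Figure D3:**
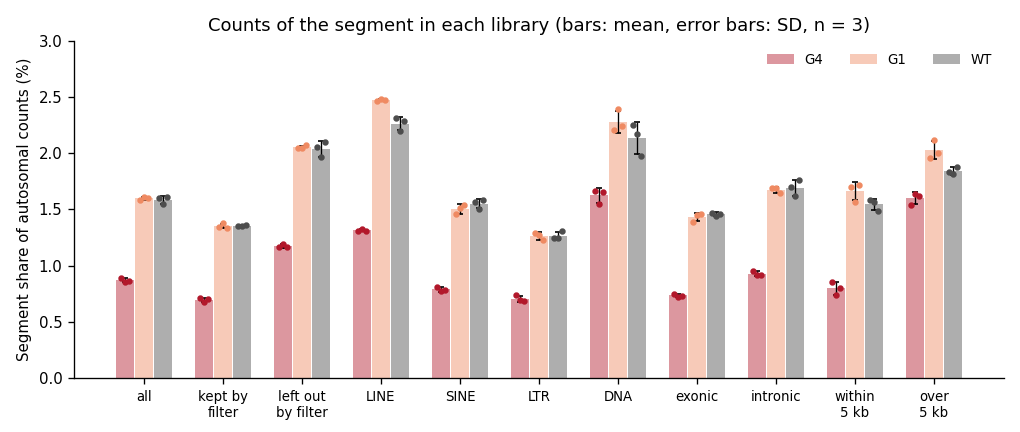
Segment share of the counts of all autosomal copies of the same kind, in percent, for G4, G1 and WT libraries; bars are means, error bars the SD and points the 3 libraries. G4 points lie below all WT points in every column, and for all copies the G1 and WT means lie at 1.60% and 1.58%.

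The 8 most abundant members lay in 3′ UTRs of genes, except for an MMVL30-int copy in an intron. The B1F2 copy in Rnf181, which encodes a ubiquitin ligase, was the most abundant, with 176, 208 and 229 CPM in the G4 libraries, 337, 315 and 314 CPM in the G1 libraries, and 357, 475 and 414 CPM in the WT libraries. Its groups did not overlap between G4 and WT, at -1.02 ± 0.12 on the log2 scale, and G1 over WT was -0.37 ± 0.11 (adjusted p = 0.053, edgeR). Exoc4, a subunit of the exocyst that tethers secretory vesicles, held 3 of the 8 in 1 3′ UTR, so they share a transcript. Its MTEb copy had 161, 180 and 170 CPM in the G4 libraries, 352, 327 and 321 CPM in the G1 libraries, and 362, 353 and 348 CPM in the WT libraries. The 3 Exoc4 copies were at -1.05 to -1.28 for G4 over WT and -0.09 to -0.32 for G1 over WT. The B1F1 copy in Luc7l2, a splicing factor gene, had 74.9, 58.6 and 64.8 CPM in the G4 libraries, 185, 224 and 177 CPM in the G1 libraries, and 207, 188 and 180 CPM in the WT libraries. It was at -1.54 ± 0.14 for G4 over WT, and its G1 and WT libraries overlapped. The L1MC1 copy in Chmp3, of the membrane-cutting ESCRT machinery, fell less, with 131, 127 and 140 CPM in the G4 libraries, 201, 184 and 181 CPM in the G1 libraries, and 170, 212 and 182 CPM in the WT libraries, or -0.50 ± 0.12.

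The deepest values belonged to few copies. A MIR3 copy in the 3′ UTR of Podxl (chr6:31522641-31522717), which encodes podocalyxin, a sialomucin of the pluripotent cell surface, had 5.50, 11.9 and 16.2 CPM in the G4 libraries, 266, 282 and 268 CPM in the G1 libraries, and 527, 556 and 532 CPM in the WT libraries. The 3 groups were apart from one another, at -5.53 ± 0.17 for G4 over WT. G1 over WT was -0.98 ± 0.12, with an adjusted p of 1.79e-06 (edgeR). Its lower level in G1 cells was called under all 16 alternatives of scaling, filter, replicate block, groups fitted and left-out library. All 16, here and for other named copies, were edgeR fits, and the DESeq2 Wald test was not among them. An IAPEz-int copy of 6379 bases in an intron of Dnah6, which encodes a heavy chain of ciliary dynein, had 1.65, 4.32 and 4.36 CPM in the G4 libraries, 3.01, 7.70 and 4.24 CPM in the G1 libraries, and 71.7, 39.0 and 68.0 CPM in the WT libraries. Here both Terc-/- groups were far below WT, at -3.91 ± 0.38 for G4 and -3.46 ± 0.36 for G1 (adjusted p = 2.98e-07, edgeR), and the G1 call held under all 16 alternatives. IAPs are LTR elements that remain mobile in mice, and this copy lies on the strand opposite to the gene. Its values were not whole, so they hold reads divided among copies, and this single copy is uncertain.

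Among the other largest falls, a second IAPEz-int copy, in an intron of Polr1a, the large subunit of RNA polymerase I, had 4.12, 3.18 and 6.53 CPM in the G4 libraries, 32.9, 27.9 and 23.9 CPM in the G1 libraries, and 23.2, 29.8 and 40.5 CPM in the WT libraries. It was low only in the G4 libraries, at -2.75 ± 0.38 for G4 over WT, unlike the Dnah6 copy. Its values, like those of the MMVL30-int copy below, were not whole and hold reads divided among copies. A B1_Mur2 copy at 70961845, within 5 kb of a gene, had 9.91, 4.58 and 8.10 CPM in the G4 libraries, 34.5, 46.1 and 38.6 CPM in the G1 libraries, and 53.2, 51.3 and 45.2 CPM in the WT libraries, at -2.73 ± 0.29. It too was low in the G4 libraries alone. The MMVL30-int copy in an intron of Gm26809, a non-coding gene, had 86.4, 61.5 and 77.8 CPM in the G4 libraries, 322, 321 and 334 CPM in the G1 libraries, and 388, 482 and 445 CPM in the WT libraries. VL30 elements are retroviral relatives that are often transcribed in mouse cells. The copy was at -2.55 ± 0.13 for G4 over WT and -0.43 ± 0.11 for G1 over WT (adjusted p = 0.0168, edgeR), a call lost without WT replicate 2 or without G1 replicate 2.

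In contrast to most members, 10 were called higher in G4 cells. Only 2 of them averaged 20 counts per library. A B1F2 copy in the 5′ UTR of Smarcad1, a chromatin remodeller that takes part in silencing endogenous retroviruses, had 38.5, 44.9 and 45.9 CPM in the G4 libraries, 24.0, 15.1 and 20.9 CPM in the G1 libraries, and 12.5, 19.9 and 12.5 CPM in the WT libraries. All G4 libraries were above all others, at 1.53 ± 0.28 for G4 over WT. An MTD copy in an intron of Cntnap2, a neuronal adhesion gene, had 29.7, 35.7 and 37.8 CPM in the G4 libraries, 33.5, 35.5 and 27.5 CPM in the G1 libraries, and 23.0, 26.2 and 16.4 CPM in the WT libraries. It was at 0.67 ± 0.26, its G1 and G4 libraries overlapped, and its call in G4 cells was lost under 10 of 16 alternatives, among them leaving out WT replicate 1 or 3, G4 replicate 2 or 3 or any of the G1 libraries.

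The other 8 were scarce, and those described here were chosen after their values were seen. A B2_Mm1a copy at 37849157, between genes, had no count in any WT library, 3.0 counts in the G1 libraries together and 60.9 counts in the G4 libraries, and it was at least 19.3-fold higher in G4 cells than in WT cells, taking 3 counts over the 3 WT libraries as the limit that a count of 0 allows. An MMETn-int copy at 67937204 had 22.1, 10.1 and 15.4 CPM in the G4 libraries, 0, 0.887 and 1.11 CPM in the G1 libraries, and 3.27, 1.05 and 1.92 CPM in the WT libraries. ETn elements are non-autonomous LTR elements that still insert in mice. A MERVL-int copy at 59782826, of the LTR family that marks the 2-cell embryo, had 11.3, 12.4 and 17.4 CPM in the G4 libraries, 3.25, 3.04 and 0.617 CPM in the G1 libraries, and 0.522, 5.76 and 2.12 CPM in the WT libraries. The MERVL-int call was lost without G4 replicate 3. Both LTR copies were higher in every G4 library than in any WT library, and so did not follow the median of the segment. The values of these LTR copies and of the B2_Mm1a copy were not whole. They hold reads divided among copies, so these single copies are uncertain. Also among the 8 were L1Md_T at 10699359 (1.75 ± 0.63), the MTEb copy in Gm43154, a non-coding gene (1.31 ± 0.52), ORR1D2 in a non-coding transcript of Rarres2 that overlaps Lrrc61 (1.08 ± 0.36) and Lx5b between genes (0.92 ± 0.31). Leaving out 1 library lost the call of Lx5b (WT replicate 2 or G4 replicate 1), ORR1D2 (WT replicate 1 or G4 replicate 2) and L1Md_T (WT replicate 1 or 3 or G4 replicate 3), and that of the Gm43154 copy was lost under 11 of 16 alternatives, among them each left-out library but WT replicate 3.

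**Figure D4:**
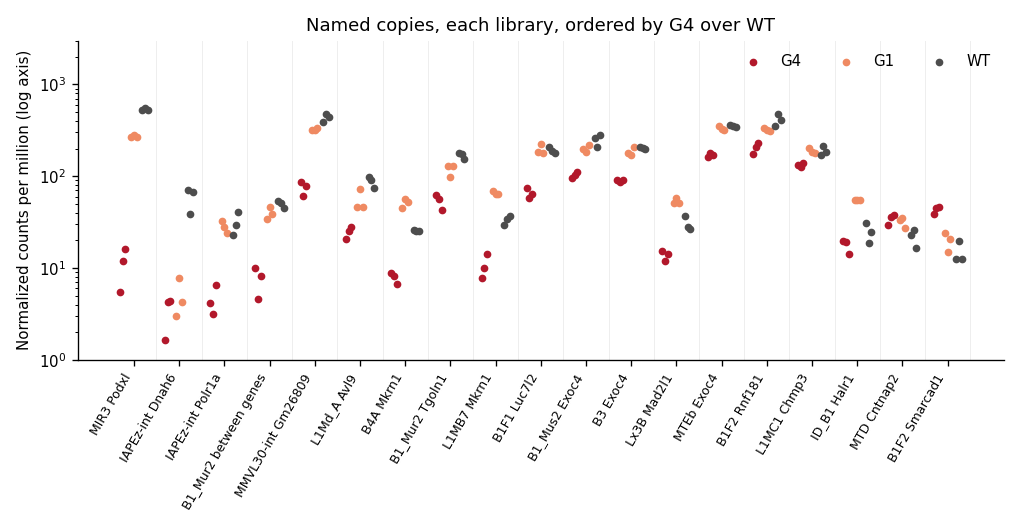
CPM on a log axis for the most abundant members and those with the largest rises and falls in G4 or G1 cells, each point a library of G4, G1 or WT, ordered by G4 over WT. The Podxl copy is lowest against WT, at 5.50 to 16.2 CPM in G4 libraries, and the Smarcad1 copy is highest, at 38.5 to 45.9 CPM.

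Of the 8 members called higher in G1 cells, 5 lay at 2 places. At the outer side of the HoxA cluster, the ID_B1 copy of Halr1, a long non-coding RNA whose bases are shown above, had 55.4, 55.03 and 55.1 CPM in the G1 libraries and 31.3, 18.8 and 25.0 CPM in the WT libraries, a log2 fold change of 1.14 ± 0.23 (adjusted p = 0.00242, edgeR), and was called under all 16 alternatives. An Lx5 copy at 52114514 had 194, 184 and 170 CPM in the G1 libraries and 108, 115 and 112 CPM in the WT libraries, at 0.71 ± 0.13 (adjusted p = 0.000479, edgeR), and a B3 copy beside it was at 0.57 ± 0.15 (adjusted p = 0.0179, edgeR), a call lost on leaving out WT replicate 2 or 3 or any of the G1 libraries. In the G4 libraries the Lx5 copy was at 50.1, 47.6 and 51.3 CPM, below every WT library. The 3 copies lie within 3 kb, so their reads need not be independent. Values of the Lx5 and B3 copies were not whole, so they hold reads divided among copies.

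A pair of adjoining copies in an intron of Mkrn1, a ubiquitin ligase gene, rose as well in G1 cells. The L1MB7 copy had 68.3, 63.9 and 63.9 CPM in the G1 libraries and 29.2, 34.5 and 37.0 CPM in the WT libraries, at 0.95 ± 0.21 (adjusted p = 0.0052, edgeR), and the B4A copy that adjoins it was at 1.01 ± 0.23 (adjusted p = 0.00609, edgeR). In the G4 libraries the L1MB7 copy was at 7.71, 10.1 and 14.4 CPM. Values of both Mkrn1 copies were not whole, so they hold reads divided among copies. The Lx3B copy in the 3′ UTR of Mad2l1, a protein of the spindle checkpoint, had 51.2, 58.6 and 50.7 CPM in the G1 libraries and 36.5, 28.2 and 26.9 CPM in the WT libraries, at 0.81 ± 0.22 (adjusted p = 0.0236, edgeR). That call was lost on leaving out WT replicate 2 or 3 or any of the G1 libraries. An L1Md_T copy at 16000000 was at 1.30 ± 0.38 (adjusted p = 0.0379, edgeR), a call lost on leaving out any WT library, G1 replicate 2 or 3 or G4 replicate 3. The L1Md_T copy at 10699359 was at 2.57 ± 0.58 (adjusted p = 0.00577, edgeR) and was called under all 16 alternatives. For G4 over WT the other 7 lay between -1.70 and -0.50, and this copy at 1.75.

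Besides the Podxl, Dnah6 and MMVL30-int copies, 3 members were called lower in G1 cells. An L1_Mus3 copy in an intron of Tmem106b, a lysosomal membrane protein, had 10.4, 14.2 and 16.5 CPM in the G1 libraries and 35.5, 32.4 and 28.9 CPM in the WT libraries (-1.23 ± 0.29, adjusted p = 0.00916, edgeR), and was at the same level in the G4 libraries, at 12.1, 12.8 and 15.3 CPM. This call was lost without G1 replicate 1. An L1Md_A copy in an intron of Avl9 had 46.6, 71.8 and 46.2 CPM in the G1 libraries and 98.1, 92.0 and 73.9 CPM in the WT libraries (-0.66 ± 0.19, adjusted p = 0.0357, edgeR). A B1_Mur2 copy in the 3′ UTR of Tgoln1, a protein of the trans-Golgi network, had 129, 97.6 and 130.0 CPM in the G1 libraries and 178, 174 and 155 CPM in the WT libraries (-0.51 ± 0.14, adjusted p = 0.0284, edgeR). The G1 and WT libraries of both copies did not overlap. The values of the Avl9 copy were not whole and hold reads divided among copies, so this single copy is uncertain. The Avl9 call was lost on leaving out WT replicate 1 or 2 or G1 replicate 1 or 3, and the Tgoln1 call on leaving out WT replicate 1 or 2 or G1 replicate 2. The losses given for G1 calls name left-out libraries only. A looser filter, at least 1 count over all libraries, lost every G1 call except those of the Podxl, Dnah6, Halr1 and L1Md_T (10699359) copies. With at least 10 counts, the calls of the B3, Lx3B, Tgoln1 and L1Md_T (16000000) copies were lost too.

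Genes of the segment were read through the sum of the copies in their exons and, separately, in their introns. Many genes had both sums tested and are counted in both sets. In the counts of the lists below, an intronic sum stood in only where the exonic sum was not tested. Of 1429 annotated genes, 72 had a tested exonic sum, with a median of -0.75 for G4 over WT, and 119 a tested intronic sum, with a median of -0.96, against 0.08 and -0.02 for genes on other autosomes. Below 0 were 63 of the 72 and 104 of the 119. For G1 over WT the medians were 0.04 and 0.03. In G4 cells 39 exonic sums were called lower and 3 higher, those of Smarcad1, Rarres2 and Gm43154, where 21.7% of all exonic sums were called lower and 26.4% higher. Of intronic sums 67 were called lower, where 13.3% of all were. The sums are made of the same copies that chose the segment, so these counts and those of the lists below are a description only.

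Of 19 listed genes of core cell functions 15 were measured, and all 15 were below 0 for G4 over WT, with a median of -0.98. Of these, 11 were called lower, where 21.7% of all exonic and 13.3% of all intronic sums were. Their summed levels were 917 to 967 CPM in G4 libraries, 1793 to 1925 CPM in G1 libraries and 1773 to 1919 CPM in WT libraries. Exoc4 had 363, 388 and 389 CPM in the G4 libraries, 778, 729 and 783 CPM in the G1 libraries, and 895, 822 and 890 CPM in the WT libraries, at -1.19 ± 0.081 for G4 over WT. Serbp1, an RNA-binding protein, had 168, 158 and 145 CPM in the G4 libraries, 277, 311 and 305 CPM in the G1 libraries, and 264, 243 and 243 CPM in the WT libraries, at -0.67 ± 0.11. Chmp3 was at -0.47 ± 0.12 and Gng12, a subunit of heterotrimeric G proteins, at -0.98 ± 0.17. These values are exonic sums. By intronic sums Serbp1 was at -0.21 ± 0.30, with G4 and WT overlapping, and Chmp3 at -1.19 ± 0.35, without overlap. None of the 15 was called in G1 cells, where 11.1% of all exonic and 1.49% of all intronic sums were called in either direction.

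The segment holds a cluster of zinc-finger genes, a class that includes the KRAB repressors of transposable elements. Of 12 listed, 7 were measured, and all 7 were below 0 for G4 over WT, with a median of -1.34. Of these, 6 were called lower, where 21.7% of all exonic and 13.3% of all intronic sums were. None was called in G1 cells, where 11.1% of all exonic and 1.49% of all intronic sums were called in either direction. Zfp282 had 11.0, 21.98 and 32.4 CPM in the G4 libraries, 50.2, 36.4 and 48.5 CPM in the G1 libraries, and 57.4, 59.6 and 52.9 CPM in the WT libraries, with no overlap between G4 and WT. Zfp398, by its exonic sum, had 37.4, 22.9 and 27.0 CPM in the G4 libraries, 39.7, 42.6 and 38.6 CPM in the G1 libraries, and 39.6, 35.6 and 48.1 CPM in the WT libraries, and overlapped, at -0.52 ± 0.25. Its intronic sum was at -1.86 ± 0.48 and that of Zfp956 at -1.87 ± 0.51, both with no overlap between G4 and WT. Zfp746, by its intronic sum, was at -1.17 ± 0.37, and Zfp956, by its exonic sum, at -0.84 ± 0.36. The Zfp956 call was lost under 9 alternatives, with values of -0.92 to -0.55, among them leaving out WT replicate 1 or 2 or G4 replicate 1 or 3, and the Zfp746 call was lost without WT replicate 3 (-0.83) or G4 replicate 2 (-0.83). Zfp800, which was on this list, lies apart from the cluster, closer to the start of the chromosome.

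Of 11 listed regulators of chromatin, telomeres and retroelements 10 were measured, 8 were below 0 for G4 over WT, 4 were called lower and 1 higher, with a median of -0.35, where 21.7% of all exonic and 13.3% of all intronic sums were called lower and 26.4% and 12.9% higher. Zc3hav1, the zinc-finger antiviral protein that restricts retroelement RNA, had 158, 141 and 187 CPM in the G4 libraries, 159, 165 and 139 CPM in the G1 libraries, and 223, 153 and 133 CPM in the WT libraries, so the groups overlapped. Ezh2, the methyltransferase of Polycomb complex 2, had 70.5, 65.9 and 36.0 CPM in introns in the G4 libraries, 93.0, 94.96 and 122 CPM in the G1 libraries, and 122, 79.5 and 103 CPM in the WT libraries, at -0.83 ± 0.23, or -0.57 and no longer called without G4 replicate 3. Pot1a, the shelterin subunit that covers the single-stranded telomere end, had 23.1, 23.8 and 42.3 CPM in the G4 libraries, 32.4, 33.7 and 28.6 CPM in the G1 libraries, and 35.5, 41.9 and 38.5 CPM in the WT libraries. Pot1a libraries of G4 and WT overlapped, at -0.36 ± 0.25. Kdm7a, a histone demethylase, was at 0.47 ± 0.23, and Smarcad1, whose B1F2 copy is given above, at 1.11 ± 0.26 over its exonic sum. The copies in Smarcad1 introns went the other way and held more reads, with 131, 109 and 94.5 CPM in the G4 libraries, 156, 187 and 209 CPM in the G1 libraries, and 215, 194 and 170 CPM in the WT libraries, at -0.79 ± 0.17. None of the 10 was called in G1 cells, where 11.1% of all exonic and 1.49% of all intronic sums were called in either direction.

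Of 10 genes of signalling and pluripotency 5 were measured, all below 0 for G4 over WT with a median of -0.91. Of these, 3 were called lower, where 21.7% of all exonic and 13.3% of all intronic sums were. The exonic sum of Podxl is a single copy, given above. Its intronic sum was at -5.95 ± 0.81 for G4 over WT. For G1 over WT the intronic sum was at -0.95 ± 0.45 and was not called (adjusted p = 0.374, edgeR). Braf, a kinase of the MAP kinase pathway, had 35.2, 27.5 and 26.1 CPM in the G4 libraries, 36.6, 71.0 and 49.6 CPM in the G1 libraries, and 67.8, 50.2 and 48.1 CPM in the WT libraries. Tcf7l1, the repressor at the end of the Wnt pathway, was at -1.14 ± 0.32 in introns, or -0.89 and no longer called without G4 replicate 3, and Smo, the transducer of Hedgehog signals, at -0.03 ± 0.19 with overlapping groups. Podxl, by its exonic sum, was the 1 gene of this list called in G1 cells. Of all sums, 11.1% of exonic and 1.49% of intronic ones were called there in either direction. Of 9 imprinted genes only Copg2 and Herc3 were measured, in introns, with 17.6, 11.0 and 19.8 CPM for Copg2 in the G4 libraries, 16.7, 8.88 and 14.3 CPM in the G1 libraries, and 4.17, 10.5 and 19.2 CPM in the WT libraries. Neither was called in either contrast, at 0.49 ± 0.47 for Copg2 and -0.38 ± 0.49 for Herc3. Of all intronic sums, 13.3% were called lower and 12.9% higher in G4 cells, and 1.49% were called in G1 cells. None of the 14 listed HoxA genes and transcripts had a tested sum.

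**Figure D5:**
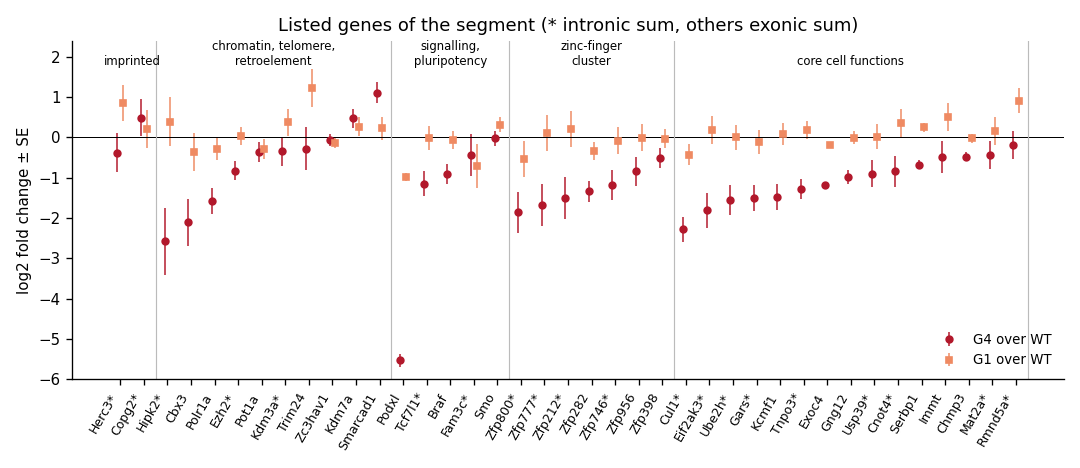
Log2 fold change with its SE for listed genes of the segment, circles for G4 over WT and squares for G1 over WT, grouped by list and ordered by G4 over WT; an asterisk marks an intronic sum. All 15 core genes and all 7 zinc-finger genes lie below 0 for G4 over WT, Podxl is lowest of all at -5.53, and the exonic sum of Smarcad1 is highest at 1.11, while its intronic sum, not plotted, was at -0.79.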

How the data were processed

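The estimated count values per copy, as deposited by the authors, came from TruSeq libraries of feeder-depleted ESCs; the submitters' processing notes name FastQC 0.11.9, STAR 2.5.3a, featureCounts and mm10. How reads shared by copies were divided is not given in the sources used here, and 55092 copies had values that were not whole. The signal values deposited by the authors are these counts divided by a size factor and were used only to check that relation. Strand use in counting is not stated, so copies and antisense genes cannot be told apart. Columns named Control were taken as WT.

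Counts were rounded, filtered (filterByExpr), scaled by TMM and tested by the quasi-likelihood method of edgeR 4.0.16 (R 4.3.3) over the whole table (common dispersion 0.0191), without a replicate block. An SE was obtained by dividing the fold change (log2) by the root of its F statistic. Calls needed an adjusted p under 0.05 (Benjamini-Hochberg). Copies were placed by GENCODE M21. The analysis was tested on simulated data.

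Named copies were the 8 most abundant, the 5 largest rises and falls in G4 and up to 4 in G1 (called, at least 20 counts per library on average, no overlap), and 2 on each side of both bounds; up to 4 genes per list were named by level. Members and lists were chosen with earlier results of these data known. Alternatives were other scalings, filters, subsets of copies and bounds, DESeq2 1.42.0, a replicate block, fits of 2 groups and leaving out each library. Some items withheld for evaluation are not reported here.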

Additional observations from a re-analysis of the deposited data

How the results depend on the processing

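The median log2 fold change of tested members was -1.06 for G4 over WT. It was -1.0 with library totals, -0.91 with at least 10 counts in all and -0.0164 with at least 1 count, -1.10 with only the 2 groups compared, -0.90 for copies over 5 kb from genes, -1.20 for copies not in an exon, -1.02 for 1 copy per gene or stretch and -0.95 for copies with whole values. For G1 over WT (0.10) these last 4 gave 0.50, 0.26, 0.16 and 0.0117, and the looser filters 0.066 and 0. For G4 over G1 (-1.05) library totals gave -1.01, the looser filters -0.92 and -0.00775, copies over 5 kb from genes -1.59, copies not in an exon -1.44, whole values -0.87, and 20 to 70 Mb -0.99. Leaving out each library gave -1.09 to -1.01 for G4 over WT, 0.08 to 0.12 for G1 over WT and -1.06 to -1.0 for G4 over G1, with 117 to 141, 10 to 17 and 115 to 146 calls. Calls in G1 numbered 5 with at least 1 count in all, 8 by the DESeq2 Wald test and 6 past a fold of 2. Same-numbered libraries of different groups did not deviate together (correlations of -0.0153 to 0.0208), and the fit with a replicate block gave 128, 14 and 132 calls and medians of -1.05, 0.11 and -1.06. The ratio of shares for G4 over WT was 0.867 for copies over 5 kb from genes, 0.587 outside exons, 0.569 for 20 to 70 Mb and 0.586 without the most abundant copies, and, added after the data were seen, 0.577 for copies left out by the filter and 0.514 for those kept, with 0.543 to 0.556 on leaving out libraries. For G1 over WT it was 1.01, fell under 1 for the kept copies (0.998) and without WT replicate 2 (0.996), and ran from 0.996 to 1.02 on leaving out libraries. Of the 10 copies called higher in G4 cells, the call was lost under 11 of 16 alternatives for the Gm43154 copy, 10 for Cntnap2, 5 for L1Md_T at 10699359, 4 each for Lx5b and Rarres2 and 1 for MERVL-int. The cause of these shifts was not tested. At 916844 to 1135585 counts per library, most members are too scarce to be followed singly.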

Other observations

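Low shares of scarce copies in G4 cells were not confined to chromosome 6. Of the 10 lowest of 496 windows of 5 Mb, 7 lay in the segment, and the other 3 were chromosome 16 from 75 to 80 Mb (-1.0 on the log2 scale for G4 over WT, -0.28 for G1 over WT), chromosome 1 from 25 to 30 Mb (-0.92 and -0.01) and chromosome 9 from 90 to 95 Mb (-0.88 and -0.33). At the far end of chromosome 6 the windows from 140 to 145 and from 145 to 150 Mb were at 0.95 and 0.51 for G4 over WT and at 0.25 and 0.18 for G1 over WT.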
